A study of Mus musculus with 12 samples.

Results

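The tumour necrosis factor (TNF) superfamily and its intracellular adaptors were followed in mouse bone marrow progenitors with and without the U2af1 knockout label. U2af1 encodes a subunit of U2AF, which marks the 3' ends of introns for the spliceosome. Members were the genes named Tnfrsf, Tnfsf or Traf followed by a digit, together with Fas, Fasl, Tnf, Lta, Ltb, Ltbr, Cd40, Cd27, Cd70, Tradd, Fadd, Ripk1, Ripk3, Mlkl and Cflar. Of 56 such symbols, 54 had a mean count above 0 in both tables, out of 17435 genes that did. Cd70, the CD27 ligand, and Tnfsf18, the GITR ligand, were listed at 0 in LinNeg with a mean of 0.160 normalized counts each in LSK, and were left out. The 12 libraries formed 4 groups of 3, namely KO-labelled and WT-labelled LSK cells, and KO-labelled and WT-labelled lineage-negative (LinNeg) cells. LSK cells are the lineage-negative, Sca-1-positive, c-Kit-positive fraction that contains the stem cells, and the LinNeg cells are the wider progenitor pool. All 4 groups were sorted from bone marrow of the C57BL/6 strain after lineage depletion. The genotype label reads U2af1KO, and the labels used here do not state the allele, any Cre driver or inducing agent, or the age of the animals. The source label of LSK cells carries the abbreviation BMT, which is not spelled out.

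U2af1 itself was higher in the KO-labelled cells, with log2 fold changes (KO over WT, ± the standard error, SE) of 0.61 ± 0.058 (SE) in LSK and 0.65 ± 0.19 (SE) in LinNeg in the authors' deposited tables. Such a gene-level count also covers exons that a deletion may leave in place and does not check the label, so every direction below rests on the authors' label. The 4 Y-linked genes Ddx3y, Uty, Kdm5d and Eif2s3y averaged 3.33 to 4.99 normalized counts in KO-labelled and 1895 to 2949 in WT-labelled LSK cells. Xist, which coats the inactive X, had 62359.7 in KO-labelled and 347 in WT-labelled LSK cells, so the sex of the animals and the genotype label cannot be told apart in LSK. In LinNeg the same Y-linked genes averaged 754 to 1255 in KO-labelled and 1303 to 2165 in WT-labelled cells, and Xist 41468 in KO-labelled and 40.0 in WT-labelled LinNeg cells, so both Xist and Y-linked RNA were present in the KO-labelled LinNeg mean. Sex was therefore also unequal between the labels in LinNeg, though not to the same degree as in LSK. Its part in the LinNeg effects and in the differences between the populations cannot be told apart from that of the label. Since replicates are not stated to be separate animals, p-values reflect only the library-to-library spread, which may be technical in LSK and in part in LinNeg. The log2 fold changes of the 4 Y-linked genes had SEs of 1.45 to 1.99 in LinNeg, against 0.38 to 0.46 in LSK. Y-linked RNA thus varied between libraries of a LinNeg label, so these were not all repeats of a single animal. Depth per library is unknown, and values per library were not analysed here. Levels are means per label derived from the authors' mean of normalized counts and their log2 fold change, and carry no spread of their own. Calls are taken at an adjusted p under 0.05 in the DESeq2 tests that the authors ran over all genes. In bulk samples, fewer cells of a type and less RNA per cell cannot be told apart.

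Most TNF-family ligands are trimeric proteins of the cell surface that can be shed, and they cluster their receptors on binding. Receptors with a death domain recruit TRADD or FADD, from which caspase-8, held in check by cFLIP (Cflar), starts apoptosis, while RIPK1, RIPK3 and MLKL carry necroptosis when caspase-8 is blocked. Receptors without a death domain bind TRAF adaptors, which assemble ubiquitin ligases and activate NF-kB and JNK signalling. In marrow the family is known for inflammatory control of stem cells through the TNF receptors, for B cell survival through BAFF and APRIL, and for osteoclast formation through RANK ligand.

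In LSK cells the family was called mostly downward with the KO label. The falls with the largest Wald statistics were those of the costimulatory receptor Cd27, the death ligand Tnfsf10 (TRAIL), the TRAF3-binding protein Traf3ip3 and the caspase-8 inhibitor Cflar. The herpesvirus entry mediator Tnfrsf14 rose 2.65-fold, and of the death-complex proteins Cflar was called. Of 53 members tested, 6 were called higher and 23 lower in KO-labelled LSK cells. Among all genes tested, 61.6% were called, with 32.4% higher and 29.2% lower. The members' median log2 fold change was -0.42, against 0.042 over all genes. With fold changes recentred on the median gene, 4 members were called higher and 25 lower in LSK, and over all genes 49.8% of the calls were higher, against 52.6% before. By role, 0 ligands rose and 7 of 14 fell, while among all receptors 3 rose and 10 of 23 fell. Tnfrsf11b was the 1 member without a test, with a mean of 0.640.

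In LinNeg cells the calls went in both directions, with receptors of the TNF and lymphotoxin branch lower and several ligands and TRAF adaptors higher. The TNF receptors Tnfrsf1a and Tnfrsf1b, the lymphotoxin receptor Ltbr and the necroptosis pore protein Mlkl fell. Traf4, Traf1, the RANK ligand Tnfsf11 and its receptor Tnfrsf11a rose. Of 54 members tested, 11 were called higher and 10 lower in KO-labelled LinNeg cells. Among all genes tested, 41.4% were called, with 22.1% higher and 19.3% lower, so the members' shares of 20.4% and 18.5% lay near the background. The members' median log2 fold change was 0.19, against 0.16 over all genes. With fold changes recentred on the median gene, 8 members were called higher and 15 lower, and over all genes 42.4% of the calls were higher, against 53.3% before. No TRAF adaptor fell in LinNeg, where 3 of 7 rose, and 5 of 14 ligands rose while 2 fell. Recentred, Traf3 and Ltb were no longer called in LinNeg (adjusted p = 0.156 and 0.113).

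**Figure D1:**
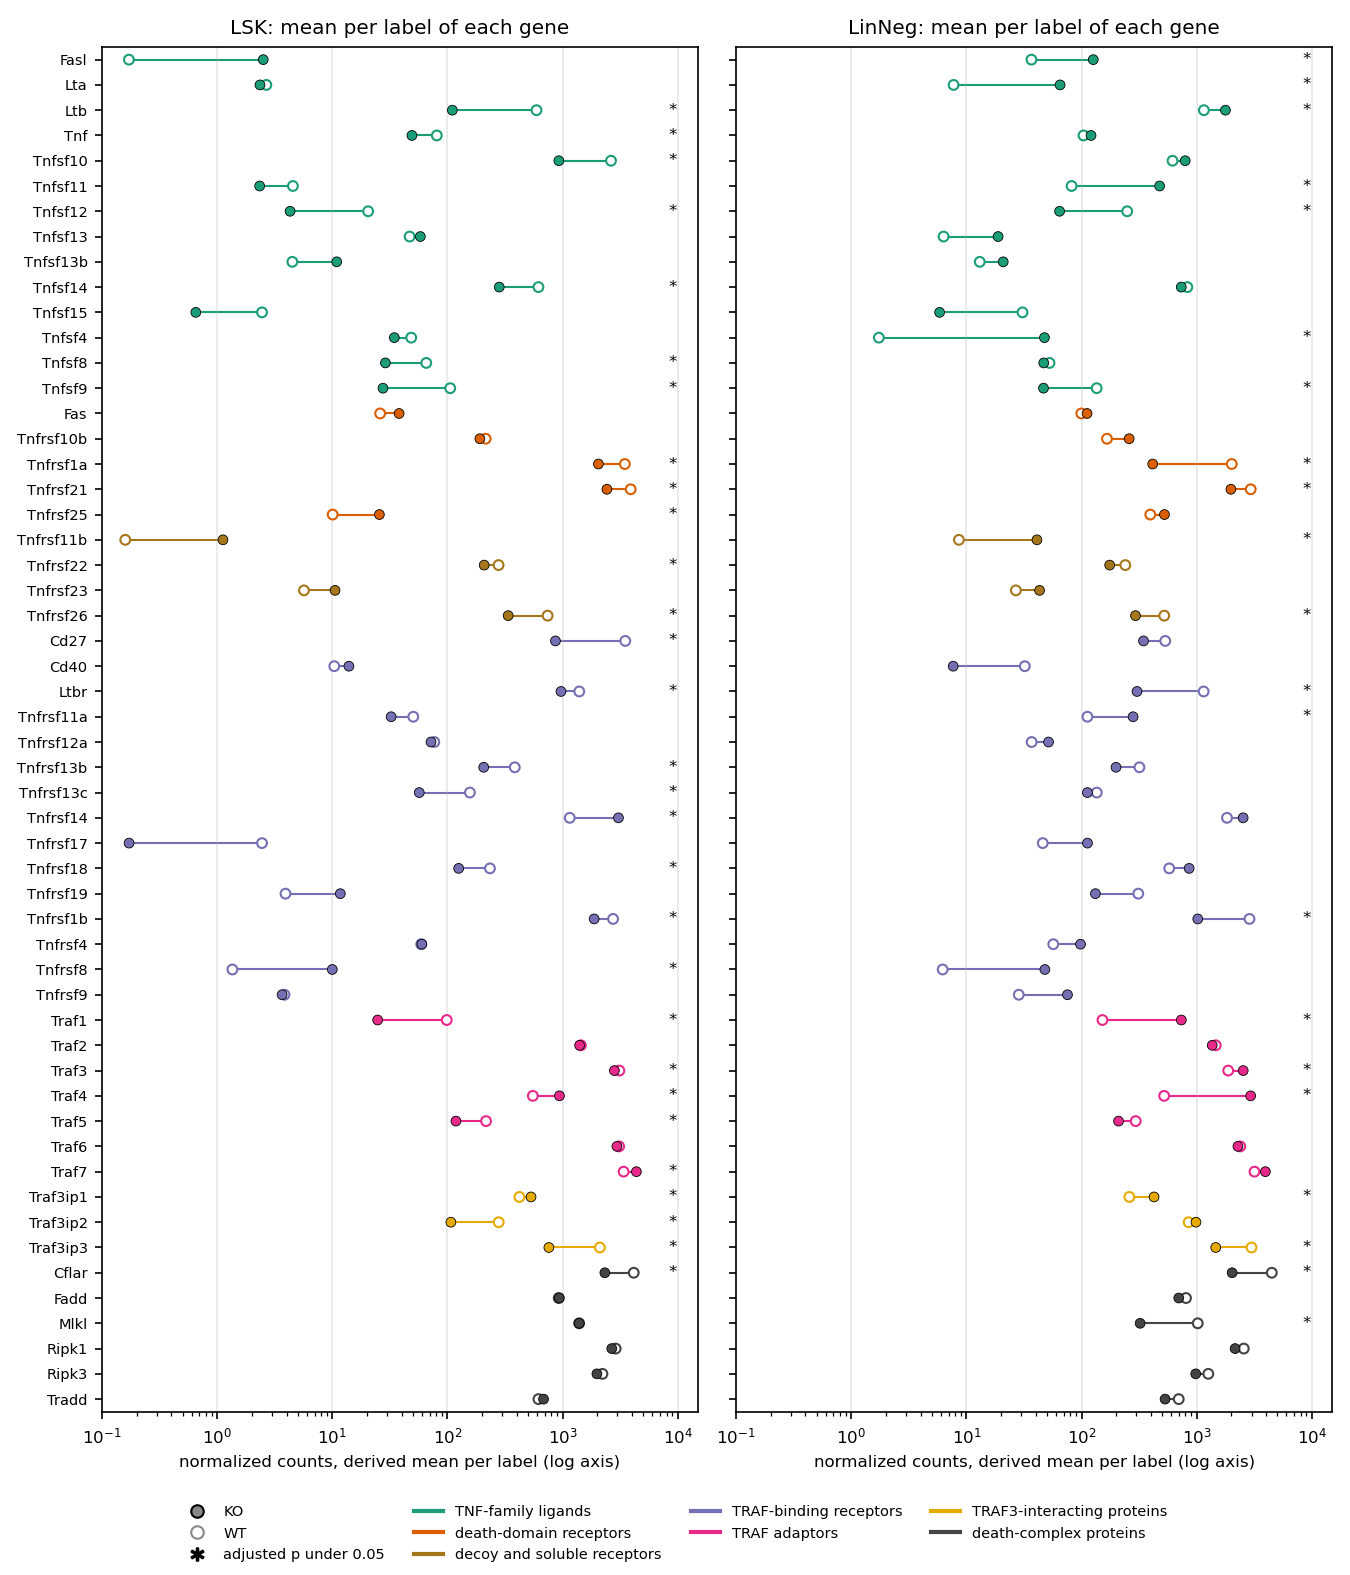
Derived mean normalized counts per label (log axis) of the 54 members, ordered by role, in LSK (left) and LinNeg (right). Filled points are KO-labelled, open points WT-labelled, and stars mark an adjusted p under 0.05; in LSK 23 of the 29 starred members lie lower with the KO label, and in LinNeg 10 of 21.

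Markers of other cell types moved with the label. Summed normalized counts of the 8 stem cell markers were 9908 in KO-labelled and 42534 in WT-labelled LSK cells, and 6 of 8 fell. All 7 lymphoid priming markers tested fell, with a sum of 3052 in KO-labelled and 30479.9 in WT-labelled LSK cells. Neutrophil markers rose in 9 of 10, at 166439 in KO-labelled and 60401 in WT-labelled LSK cells, and erythroid markers rose in 7 of 7, at 52799.7 in KO-labelled and 7736 in WT-labelled LSK cells. In LinNeg the 10 monocyte and dendritic markers all fell, at 6644 in KO-labelled and 77188 in WT-labelled LinNeg cells, and 7 of 9 neutrophil markers fell, at 4413 in KO-labelled and 83253 in WT-labelled LinNeg cells. Erythroid markers rose in 7 of 7, at 56944 in KO-labelled and 12450.1 in WT-labelled LinNeg cells. The 10 T and NK cell markers summed to 5518 in KO-labelled and 4112 in WT-labelled LinNeg cells, and of the 8 tested 3 were higher and 1 lower. Cd3e and Cd3d had a fold change and no p there, as DESeq2 leaves genes for which single libraries stand far out. The sums include both. Cd3e had 670 in KO-labelled and 62.7 in WT-labelled LinNeg cells, and Cd3d had 304 and 20.6. Of the mast cell, basophil and eosinophil markers, 6 of 8 rose in LSK and 5 of 8 fell in LinNeg, and of 7 megakaryocyte markers 7 fell in LSK and 6 in LinNeg. The globin genes Hbb-bs and Hba-a1 had means under 1 in both tables. The gate markers Kit and Ly6a (Sca-1) had log2 fold changes of -0.98 and -0.82 in LSK, per the authors' deposited table, and both were called lower. The part of cell composition in the results below was not tested.

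Both receptors of TNF fell in both populations. TNF, from Tnf, binds TNFR1 (Tnfrsf1a), which has a death domain, and TNFR2 (Tnfrsf1b), which binds TRAFs. Tnfrsf1a had 2048 normalized counts in KO-labelled and 3475 in WT-labelled LSK cells, and 415 in KO-labelled and 2019 in WT-labelled LinNeg cells. In the authors' deposited tables its log2 fold change was -0.76 ± 0.095 (SE, adjusted p = 4.21e-15) in LSK and -2.28 ± 0.18 (SE, adjusted p = 1.22e-35) in LinNeg. By the size of its Wald statistic Tnfrsf1a stood 129th of 17108 genes in LinNeg. Tnfrsf1b had 1881 normalized counts in KO-labelled and 2745 in WT-labelled LSK cells, and 1023 in KO-labelled and 2879 in WT-labelled LinNeg cells. Its log2 fold change in the authors' deposited tables was -0.55 ± 0.085 (SE, adjusted p = 4.52e-10) in LSK and -1.49 ± 0.16 (SE, adjusted p = 2.17e-19) in LinNeg, again lower in both. The ligand gene Tnf had 49.1 in KO-labelled and 80.8 in WT-labelled LSK cells and 121 in KO-labelled and 104 in WT-labelled LinNeg cells. The authors' deposited table gave Tnf -0.72 ± 0.33 (SE, adjusted p = 0.0482) in LSK, a call lost without independent filtering (adjusted p = 0.0533), and 0.22 (95% interval -0.71 to 1.15, adjusted p = 0.75) in LinNeg.

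The lymphotoxin branch moved in opposite ways for ligand and receptor in LinNeg. Ltb, whose product anchors lymphotoxin to the membrane of lymphoid cells, had 110.2 normalized counts in KO-labelled and 594 in WT-labelled LSK cells, and 1779.6 in KO-labelled and 1157 in WT-labelled LinNeg cells. In the authors' deposited tables it fell in LSK at -2.43 ± 0.42 (SE, adjusted p = 2.04e-08) and rose in LinNeg at 0.62 ± 0.24 (SE, adjusted p = 0.0285). Lta, the other lymphotoxin chain, had 65.1 in KO-labelled and 7.74 in WT-labelled LinNeg cells and rose at 3.07 ± 0.83 (SE, adjusted p = 9.46e-04) in the authors' deposited table, while in LSK it had 2.35 in KO-labelled and 2.67 in WT-labelled LSK cells and was not called. Their receptor Ltbr, found on myeloid and stromal cells, had 969 normalized counts in KO-labelled and 1397 in WT-labelled LSK cells, and 303 in KO-labelled and 1151 in WT-labelled LinNeg cells. It fell in both, at -0.53 ± 0.11 (SE, adjusted p = 8.78e-06) in LSK and -1.92 ± 0.27 (SE, adjusted p = 9.18e-12) in LinNeg in the authors' deposited tables. Tnfsf14 (LIGHT), a ligand shared by Ltbr and the herpesvirus entry mediator, had 282 normalized counts in KO-labelled and 617 in WT-labelled LSK cells and fell there at -1.13 ± 0.14 (SE, adjusted p = 5.27e-15) in the authors' deposited table. Tnfsf14 in LinNeg had 735 in KO-labelled and 831 in WT-labelled LinNeg cells, at -0.18 (95% interval -0.79 to 0.43, adjusted p = 0.691) in the authors' deposited table. Tnfrsf14, that mediator, which also engages the inhibitory receptor BTLA, had 3059 normalized counts in KO-labelled and 1154 in WT-labelled LSK cells, and 2536 in KO-labelled and 1836 in WT-labelled LinNeg cells. It rose in LSK at 1.41 ± 0.081 (SE, adjusted p = 6.07e-66), while in LinNeg the authors' deposited table gave 0.47 ± 0.20 (SE, adjusted p = 0.0535), which is not a call and became one (adjusted p = 0.0439) over genes with a mean of at least 50.

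Among the other death receptors and their ligands, TRAIL changed and its receptor was not called. Tnfsf10, which encodes TRAIL, had 928 normalized counts in KO-labelled and 2634 in WT-labelled LSK cells, and 795 in KO-labelled and 618 in WT-labelled LinNeg cells. It fell in LSK at -1.51 ± 0.093 (SE, adjusted p = 5.81e-57) in the authors' deposited table, and in LinNeg stood at 0.36 (95% interval -0.34 to 1.07, adjusted p = 0.444). Its death receptor Tnfrsf10b (DR5) had 191 in KO-labelled and 215 in WT-labelled LSK cells, and 259 in KO-labelled and 166 in WT-labelled LinNeg cells. The authors' deposited table gave Tnfrsf10b -0.17 (95% interval -0.53 to 0.20, adjusted p = 0.448) in LSK and 0.64 (95% interval -0.051 to 1.33, adjusted p = 0.136) in LinNeg. Fas, the receptor of FasL and a known p53 target, had 38.0 in KO-labelled and 26.0 in WT-labelled LSK cells and 112 in KO-labelled and 99.5 in WT-labelled LinNeg cells. In the authors' deposited tables Fas was at 0.55 (95% interval -0.23 to 1.33, adjusted p = 0.23) in LSK and 0.17 (95% interval -0.85 to 1.18, adjusted p = 0.828) in LinNeg, so changes of 2-fold up lie inside both intervals. Fasl, a product of cytotoxic T and NK cells, had 126 in KO-labelled and 36.7 in WT-labelled LinNeg cells and rose at 1.78 ± 0.60 (SE, adjusted p = 0.00917) in the authors' deposited table, whereas its LSK mean was 1.34 and it was not called. The T and NK cell markers had 3 of 8 higher and 1 lower in LinNeg, and their part in the rises of Fasl, Lta and Ltb was not tested.

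Tnfrsf21 (DR6), a death-domain receptor known from neurons and T helper cells in mice, had 2428 normalized counts in KO-labelled and 3906 in WT-labelled LSK cells, and 1985 in KO-labelled and 2950.2 in WT-labelled LinNeg cells. It fell in both, at -0.69 ± 0.092 (SE, adjusted p = 3.63e-13) in LSK and -0.57 ± 0.17 (SE, adjusted p = 0.00346) in LinNeg in the authors' deposited tables. Tnfrsf25 (DR3) had 25.6 in KO-labelled and 10.1 in WT-labelled LSK cells and rose at 1.35 ± 0.62 (SE, adjusted p = 0.0473) in the authors' deposited table, a call lost without independent filtering (adjusted p = 0.0522) and on recentring (adjusted p = 0.0553). In LinNeg Tnfrsf25 had 526 in KO-labelled and 396 in WT-labelled LinNeg cells, at 0.41 (95% interval -0.33 to 1.14, adjusted p = 0.404). Its ligand Tnfsf15 (TL1A) had a mean of 1.55 in LSK and 18.3 in LinNeg and was called in neither. The mouse decoy TRAIL receptors Tnfrsf22 and Tnfrsf23 and their neighbour Tnfrsf26 are close paralogs on chromosome 7, with gaps of 6.08 and 16.1 kb between them. Reads that match more than 1 of them could have been split or left out in the authors' counting, so their single values are uncertain. Tnfrsf26 had 337 normalized counts in KO-labelled and 741 in WT-labelled LSK cells, and 294 in KO-labelled and 523 in WT-labelled LinNeg cells. It fell in both, at -1.14 ± 0.14 (SE, adjusted p = 5.84e-16) in LSK and -0.83 ± 0.26 (SE, adjusted p = 0.00482) in LinNeg in the authors' deposited tables. Tnfrsf22 fell in LSK at -0.42 ± 0.15 (SE, adjusted p = 0.0121), with 208 in KO-labelled and 278 in WT-labelled LSK cells, and stood at -0.45 (95% interval -1.25 to 0.35, adjusted p = 0.393) in LinNeg in the authors' deposited tables. Tnfrsf23 was low, with means of 8.11 in LSK and 35.0 in LinNeg, and was not called.

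Cd27, a receptor of lymphoid cells that also marks early multipotent progenitors in mouse marrow, had the largest Wald statistic of the family in LSK. It had 867 normalized counts in KO-labelled and 3506 in WT-labelled LSK cells, and 346 in KO-labelled and 534 in WT-labelled LinNeg cells. It fell at -2.01 ± 0.095 (SE, adjusted p = 6.18e-97) in the authors' deposited table, which placed it 172nd of 16482 genes by the size of its Wald statistic. The LinNeg value was -0.63 (95% interval -1.37 to 0.12, adjusted p = 0.183). Cd27 overlaps Vamp1 on the opposite strand, and whether reads were counted by strand is not stated in the labels; Vamp1 had 485 in KO-labelled and 1134 in WT-labelled LSK cells, at -1.23 ± 0.11 (SE) in the authors' deposited table. Cd40, the costimulatory receptor of B cells and dendritic cells, had 13.9 in KO-labelled and 10.4 in WT-labelled LSK cells and 7.67 in KO-labelled and 32.2 in WT-labelled LinNeg cells. It was called in neither population, at 0.42 (95% interval -1.40 to 2.25, adjusted p = 0.716) in LSK and -2.07 (95% interval -5.15 to 1.02, adjusted p = 0.304) in LinNeg in the authors' deposited tables.

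Of the other costimulatory ligands and receptors of lymphocytes, Tnfsf9, Tnfrsf18 and Tnfsf8 fell in LSK and Tnfrsf8 was called higher. Tnfsf9, the 4-1BB ligand of antigen-presenting cells, had 27.5 normalized counts in KO-labelled and 106 in WT-labelled LSK cells, and 46.7 in KO-labelled and 135 in WT-labelled LinNeg cells. It fell in both, at -1.94 ± 0.32 (SE, adjusted p = 6.03e-09) in LSK and -1.53 ± 0.48 (SE, adjusted p = 0.00452) in LinNeg in the authors' deposited tables. A noncoding gene on the opposite strand, Gm11110, overlaps it and had log2 fold changes of -1.98 ± 0.37 (SE) and -1.46 ± 0.61 (SE) there. The receptor Tnfrsf9 (4-1BB) had means of 3.75 in LSK and 52.0 in LinNeg and was not called. Tnfrsf18 (GITR), a receptor of regulatory T cells, had 125 normalized counts in KO-labelled and 234 in WT-labelled LSK cells, and 861 in KO-labelled and 578 in WT-labelled LinNeg cells. The authors' deposited table gave it -0.90 ± 0.18 (SE, adjusted p = 1.88e-06) in LSK and 0.58 ± 0.28 (SE, adjusted p = 0.0834) in LinNeg, a fall in LSK and no call in LinNeg. Tnfsf4 (OX40 ligand) had 34.5 in KO-labelled and 48.4 in WT-labelled LSK cells and was not called, while in LinNeg it had 47.6 in KO-labelled and 1.74 in WT-labelled LinNeg cells and rose at 4.78 ± 1.20 (SE, adjusted p = 3.08e-04) in the authors' deposited table, a value that rests on a mean of 24.7. Its receptor Tnfrsf4 (OX40) was at 0.017 (95% interval -0.60 to 0.63, adjusted p = 0.969) in LSK, a sign that turns on recentring (-0.025), and 0.79 (95% interval -0.34 to 1.91, adjusted p = 0.28) in LinNeg. Tnfrsf8 (CD30) had 9.99 in KO-labelled and 1.35 in WT-labelled LSK cells and was called higher at 2.88 ± 1.19 (SE, adjusted p = 0.0263), and its ligand Tnfsf8 fell in LSK at -1.18 ± 0.37 (SE, adjusted p = 0.00254) in the authors' deposited table. Neither Tnfrsf8 nor Tnfsf8 was called in LinNeg (adjusted p = 0.0886 and 0.865).

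The B cell survival receptors were lower in LSK. Tnfrsf13b (TACI), which binds BAFF and APRIL, had 206 normalized counts in KO-labelled and 384 in WT-labelled LSK cells and fell at -0.90 ± 0.16 (SE, adjusted p = 7.44e-08) in the authors' deposited table. Tnfrsf13c, the BAFF receptor, had 56.9 in KO-labelled and 157 in WT-labelled LSK cells and fell at -1.46 ± 0.36 (SE, adjusted p = 1.32e-04). In LinNeg neither was called, at -0.68 (95% interval -1.37 to 0.014, adjusted p = 0.112) for Tnfrsf13b and -0.27 (95% interval -1.07 to 0.53, adjusted p = 0.638) for Tnfrsf13c in the authors' deposited table; recentred on the median gene, Tnfrsf13b was called lower there (adjusted p = 0.0443). Tnfrsf17 (BCMA), the plasma cell receptor, had 113 in KO-labelled and 46.0 in WT-labelled LinNeg cells and was not called (adjusted p = 0.0595), a value that passed over genes with a mean of at least 50 (adjusted p = 0.049), and in LSK its mean was 1.31. Their ligands had means of 7.70 in LSK and 17.0 in LinNeg for Tnfsf13b (BAFF), and of 52.5 and 12.6 for Tnfsf13 (APRIL), and neither was called. The 8 B cell markers summed to 958 in KO-labelled and 1174 in WT-labelled LSK cells, and 2 of 8 fell.

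RANK ligand, its receptor and its decoy all rose in LinNeg. Tnfsf11, the osteoclast factor RANKL that stromal and lymphoid cells make, had 477 normalized counts in KO-labelled and 82.0 in WT-labelled LinNeg cells, and rose at 2.54 ± 0.46 (SE, adjusted p = 3.72e-07) in the authors' deposited table. Tnfrsf11a (RANK), the receptor on osteoclast precursors, had 280.5 in KO-labelled and 113 in WT-labelled LinNeg cells and rose at 1.32 ± 0.46 (SE, adjusted p = 0.0118). Tnfrsf11b (osteoprotegerin), the soluble decoy, was low with 41.0 in KO-labelled and 8.61 in WT-labelled LinNeg cells and was called higher at 2.25 ± 0.89 (SE, adjusted p = 0.0308) in the authors' deposited table. Tnfsf11 in LSK had 2.34 in KO-labelled and 4.54 in WT-labelled LSK cells and Tnfrsf11a 32.4 in KO-labelled and 50.5 in WT-labelled LSK cells, and neither was called. The 8 stromal and endothelial markers in LinNeg summed to 121648 in KO-labelled and 206126 in WT-labelled LinNeg cells, with 1 higher and 3 lower. Most of both sums came from Col1a1 and Col1a2, neither of which was called. Col1a1 had 74878 in KO-labelled and 114997 in WT-labelled LinNeg cells, and Col1a2 had 38330 and 60983. Tnfsf12 (TWEAK), a ligand of monocytes, fell in both, with 4.29 in KO-labelled and 20.4 in WT-labelled LSK cells and 64.5 in KO-labelled and 249 in WT-labelled LinNeg cells. The authors' deposited table gave it -2.25 ± 0.72 (SE, adjusted p = 0.00353) in LSK and -1.95 ± 0.48 (SE, adjusted p = 2.68e-04) in LinNeg; it shares a read-through transcript with Tnfsf13, 0.466 kb away, so the split between both genes is uncertain. Its receptor Tnfrsf12a (Fn14) was at -0.094 (95% interval -0.67 to 0.48, adjusted p = 0.799) in LSK and 0.49 (95% interval -0.79 to 1.76, adjusted p = 0.587) in LinNeg. Tnfrsf19 (TROY) had 11.7 in KO-labelled and 3.92 in WT-labelled LSK cells and 132 in KO-labelled and 311 in WT-labelled LinNeg cells and was called in neither (adjusted p = 0.174 and 0.072). Recentred, Tnfrsf19 was called lower in LinNeg (adjusted p = 0.0393).

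Of 7 TRAF adaptors, 5 were called in LSK and 3 in LinNeg, or 71.4% and 42.9%, near the 61.6% and 41.4% of all genes. Traf4, a TRAF with roles in epithelial polarity as well as in immune signalling, had 939 normalized counts in KO-labelled and 552 in WT-labelled LSK cells, and 2947 in KO-labelled and 522 in WT-labelled LinNeg cells. It rose in both, at 0.77 ± 0.10 (SE, adjusted p = 3.17e-13) in LSK and 2.50 ± 0.23 (SE, adjusted p = 2.10e-26) in LinNeg in the authors' deposited tables, and stood 260th of 17108 genes in LinNeg by the size of its Wald statistic. Traf1, a TRAF without a RING domain that NF-kB is known to induce, had 24.7 normalized counts in KO-labelled and 98.6 in WT-labelled LSK cells, and 736 in KO-labelled and 152 in WT-labelled LinNeg cells. It fell in LSK at -1.99 ± 0.37 (SE, adjusted p = 2.95e-07) and rose in LinNeg at 2.28 ± 0.40 (SE, adjusted p = 1.42e-07) in the authors' deposited tables. Traf3, which restrains the noncanonical NF-kB kinase NIK, had 2820.0 in KO-labelled and 3115 in WT-labelled LSK cells and 2539 in KO-labelled and 1881 in WT-labelled LinNeg cells. Its changes were small and of opposite sign, at -0.14 ± 0.063 (SE, adjusted p = 0.0378) in LSK and 0.43 ± 0.16 (SE, adjusted p = 0.019) in LinNeg in the authors' deposited tables.

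Traf5 fell in LSK at -0.87 ± 0.21 (SE, adjusted p = 7.94e-05), with 118 normalized counts in KO-labelled and 216 in WT-labelled LSK cells, and was at -0.49 (95% interval -1.12 to 0.13, adjusted p = 0.212) in LinNeg in the authors' deposited tables. Traf7, which binds MEKK3 and lacks the TRAF domain, rose in LSK at 0.37 ± 0.055 (SE, adjusted p = 5.58e-11) and was at 0.31 ± 0.14 (SE, adjusted p = 0.061) in LinNeg. Traf2, the partner of cIAP ligases, was at -0.038 (95% interval -0.18 to 0.11, adjusted p = 0.68) in LSK and -0.10 (95% interval -0.44 to 0.24, adjusted p = 0.681) in LinNeg in the authors' deposited tables. Traf6, which also serves Toll-like and IL-1 receptors, was at -0.063 (95% interval -0.20 to 0.074, adjusted p = 0.448) in LSK and -0.068 (95% interval -0.34 to 0.20, adjusted p = 0.73) in LinNeg. Traf2 had 1406 in KO-labelled and 1443 in WT-labelled LSK cells and Traf6 2967 in KO-labelled and 3099.6 in WT-labelled LSK cells, and none of their 4 intervals holds a 2-fold change. Traf3ip3, a membrane protein that binds TRAF3 in lymphoid cells, had 760.2 normalized counts in KO-labelled and 2109 in WT-labelled LSK cells, and 1466 in KO-labelled and 2997 in WT-labelled LinNeg cells. It fell in both, at -1.47 ± 0.094 (SE, adjusted p = 2.02e-53) and -1.03 ± 0.25 (SE, adjusted p = 1.89e-04) in the authors' deposited tables. Traf3ip2 (Act1), the adaptor of the IL-17 receptor, fell in LSK at -1.38 ± 0.18 (SE, adjusted p = 2.73e-13), with 107 in KO-labelled and 279 in WT-labelled LSK cells, and was at 0.21 (95% interval -0.40 to 0.83, adjusted p = 0.628) in LinNeg. The antisense gene E130307A14Rik overlaps it and was at -0.82 ± 0.18 (SE) in LSK and -1.28 ± 0.36 (SE) in LinNeg, so part of the reads may belong there. Traf3ip1, a ciliary transport protein despite its name, was called higher in both, at 0.34 ± 0.15 (SE, adjusted p = 0.0446) and 0.71 ± 0.25 (SE, adjusted p = 0.0117) in the authors' deposited tables, and both calls were lost on recentring (adjusted p = 0.0827 in LSK and 0.0559 in LinNeg).

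Of the 6 proteins that carry the death signal, Cflar fell in both populations and Mlkl in LinNeg, and the calls of Ripk1, Ripk3 and Tradd depended on the centring of the fold changes. Cflar, whose product cFLIP blocks caspase-8 at the receptor, had 2329.8 normalized counts in KO-labelled and 4153 in WT-labelled LSK cells, and 2034 in KO-labelled and 4497 in WT-labelled LinNeg cells. It fell in both, at -0.83 ± 0.066 (SE, adjusted p = 1.27e-35) in LSK and -1.14 ± 0.19 (SE, adjusted p = 2.57e-08) in LinNeg in the authors' deposited tables. Mlkl, which perforates the membrane in necroptosis, had 1394 normalized counts in KO-labelled and 1393 in WT-labelled LSK cells, and 323 in KO-labelled and 1022 in WT-labelled LinNeg cells. The LSK levels lay side by side, at 0.0014 (95% interval -0.15 to 0.15, adjusted p = 0.988), a value whose sign turns on recentring (-0.041), while in LinNeg it fell at -1.66 ± 0.22 (SE, adjusted p = 8.98e-13) in the authors' deposited table. Ripk3, which phosphorylates MLKL, was at -0.16 ± 0.074 (SE, adjusted p = 0.0511) in LSK and -0.36 ± 0.18 (SE, adjusted p = 0.0863) in LinNeg, and was called in neither. Recentred on the median gene, Ripk3 was called lower in LSK (adjusted p = 0.012) and in LinNeg (adjusted p = 0.0101), and in LSK also over genes with a mean of at least 50 (adjusted p = 0.0413). Ripk1 was at -0.11 (95% interval -0.25 to 0.021, adjusted p = 0.145) in LSK and -0.25 (95% interval -0.53 to 0.03, adjusted p = 0.153) in LinNeg in the authors' deposited tables, and recentred it was called lower in both (adjusted p = 0.0394 in LSK and 0.0132 in LinNeg). Fadd, the adaptor of Fas and TRAIL receptors, was at 0.014 (95% interval -0.16 to 0.19, adjusted p = 0.904) in LSK, a sign that turns on recentring (-0.028), and -0.21 (95% interval -0.68 to 0.26, adjusted p = 0.514) in LinNeg. Tradd, the adaptor of TNFR1, was at 0.15 (95% interval -0.056 to 0.35, adjusted p = 0.216) in LSK and -0.39 (95% interval -0.77 to -0.02, adjusted p = 0.0851) in LinNeg, where recentring made it a lower call (adjusted p = 0.0119). The lowest level of the 6 under either label was the 323 normalized counts of Mlkl in KO-labelled LinNeg cells.

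Set per kilobase of annotated exon, the leading member differed between the labels in LSK. The length counts every annotated exon of a gene, also of transcripts that may not be expressed. Levels of different genes therefore compare only roughly. In KO-labelled LSK cells the highest level was that of Tnfrsf14, at 2127 normalized counts per kb, ahead of Ripk3 at 867 and Tnfrsf1a at 791. In WT-labelled LSK cells Cd27 led at 1506 per kb, followed by Tnfrsf1a at 1341, Ripk3 at 969 and Tnfrsf21 at 951. Cd27 stood at 373 per kb in KO-labelled LSK cells, and Tnfrsf14 at 803 in WT-labelled LSK cells. In LinNeg Tnfrsf14 led under either label, with 1763 per kb in KO-labelled and 1277 in WT-labelled cells. Behind it came Ltb at 1174 and Traf4 at 895 in KO-labelled cells, against Tnfrsf1a at 779, Ltb at 763 and Tnfrsf1b at 754 in WT-labelled cells. Neighbours in these orders were not tested against each other.

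The rest of the pathway was counted from lists of its other genes, beside 61.6% of all genes called in LSK and 41.4% in LinNeg. Those shares include many genes with low means. Over genes with a mean of at least 50, 77.4% were called in LSK and 52.1% in LinNeg. Except for the family proteins outside the symbol rule, all listed genes had means above 50, so these higher shares are the closer background for them. Of the NF-kB kinases, subunits and inhibitors, 2 rose and 11 fell of 14 in LSK (92.9% called) and 1 rose and 7 fell of 14 in LinNeg (57.1% called), with median log2 fold changes of -0.40 and -0.29, against 0.042 and 0.16 over all genes. The kinase subunit Chuk rose at 0.87 ± 0.065 (SE, adjusted p = 1.75e-40) and the inhibitor Nfkbie fell at -1.43 ± 0.11 (SE, adjusted p = 2.13e-36) in LSK, per the authors' deposited table. In LinNeg the subunit Rel fell at -2.17 ± 0.22 (SE, adjusted p = 3.46e-22) and the kinase Ikbkb at -0.88 ± 0.12 (SE, adjusted p = 4.21e-13) in the authors' deposited table. Of the ubiquitin ligases, deubiquitinases and adaptors, 6 rose and 8 fell of 17 in LSK (82.4% called) and 1 rose and 4 fell of 17 in LinNeg (29.4% called). The ligase Birc3 (cIAP2) fell at -0.85 ± 0.081 (SE, adjusted p = 7.38e-25) and the TAK1 adaptor Tab3 rose at 0.86 ± 0.088 (SE, adjusted p = 7.98e-22) in LSK, per the authors' deposited table, while the caspase inhibitor Xiap fell at -0.9998 ± 0.13 (SE, adjusted p = 1.07e-13) and the ligase component Sharpin at -0.42 ± 0.16 (SE, adjusted p = 0.02) in LinNeg. Of the death effectors, 6 rose and 2 fell of 9 in LSK (88.9% called) and 1 rose and 4 fell of 9 in LinNeg (55.6% called). Casp8, the initiator recruited by FADD, fell in both, at -0.69 ± 0.064 (SE, adjusted p = 4.48e-26) and -0.65 ± 0.18 (SE, adjusted p = 9.01e-04). Bid, which caspase-8 cleaves, fell in LinNeg at -0.96 ± 0.18 (SE, adjusted p = 4.83e-07) and rose in LSK at 0.63 ± 0.07 (SE, adjusted p = 2.57e-18), and Faf1, a FAS-associated factor, rose in LinNeg at 0.75 ± 0.17 (SE, adjusted p = 5.09e-05) in the authors' deposited tables.

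Of the JNK branch and the sheddases, 4 rose and 3 fell of 8 in LSK (87.5% called) and 1 rose and 3 fell of 8 in LinNeg (50% called). Map3k5 (ASK1) fell in both, at -1.04 ± 0.098 (SE, adjusted p = 4.59e-25) and -1.38 ± 0.18 (SE, adjusted p = 3.31e-13) in the authors' deposited tables. Adam17, the protease that sheds TNF and its receptors, fell in LinNeg at -1.01 ± 0.14 (SE, adjusted p = 1.97e-12) and was called higher in LSK at 0.17 ± 0.066 (SE, adjusted p = 0.0157), a call lost on recentring (adjusted p = 0.0744), and Map2k4 rose in LSK at 0.53 ± 0.069 (SE, adjusted p = 1.31e-13). Of 10 family proteins whose symbols fall outside the rule, 1 rose and 4 fell of 8 in LSK (62.5% called) and 3 rose and 1 fell of 10 in LinNeg (40.0% called). Eda2r, an X-linked receptor and known p53 target, rose in both, with 110.2 in KO-labelled and 49.3 in WT-labelled LSK cells at 1.16 ± 0.27 (SE, adjusted p = 5.20e-05) and 53.4 in KO-labelled and 5.69 in WT-labelled LinNeg cells at 3.23 ± 0.91 (SE, adjusted p = 0.00157) in the authors' deposited tables. Edar fell in LSK, with 0.664 in KO-labelled and 45.9 in WT-labelled LSK cells, a derived KO level under 1 that makes its fold no measured ratio. Its adaptor Edaradd fell in LSK at -1.59 ± 0.47 (SE, adjusted p = 0.00144) and rose in LinNeg at 2.27 ± 0.68 (SE, adjusted p = 0.003) in the authors' deposited tables. Nradd fell in LSK at -1.80 ± 0.33 (SE, adjusted p = 1.51e-07) and Eda at -0.81 ± 0.30 (SE, adjusted p = 0.012), and in LinNeg Ripk4 rose at 3.82 ± 0.97 (SE, adjusted p = 3.76e-04) and Ngfr fell at -2.08 ± 0.77 (SE, adjusted p = 0.0195). Relt and Ripk2 were called in neither table, though recentring made Relt and Nradd lower calls in LinNeg (adjusted p = 0.0148 and 0.0281). Cd40lg had means of 0.190 in LSK and 3.01 in LinNeg.

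**Figure D2:**
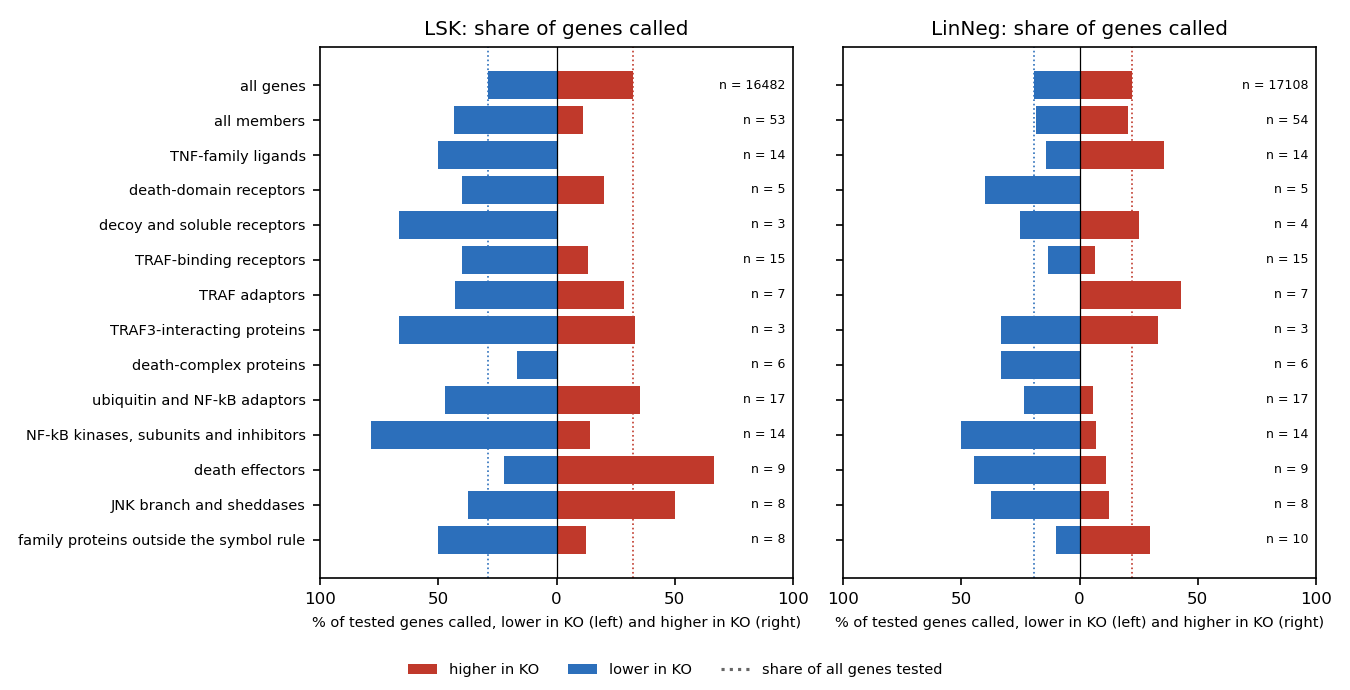
Share of tested genes called higher (right, red) and lower (left, blue) in KO-labelled cells, in percent, for all genes, all members, each role group and each pathway list, in LSK and LinNeg; dotted lines mark the shares of all genes and n is the number tested. Among members 11.3% were higher and 43.4% lower in LSK, against 32.4% and 29.2% of all genes, and 20.4% and 18.5% in LinNeg, against 22.1% and 19.3%.

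The question of whether the effect differed between the populations was asked by testing the difference of the log2 fold changes, LSK minus LinNeg, in 15735 genes with an adjusted p in both tables, which share no library. Of 53 members tested, 18 differed, 6 of them with the LSK effect above and 12 with it below the LinNeg effect. Among all genes 31.9% differed, 17.4% with LSK above and 14.5% with LSK below, so the total among members lay near the background. Of the same 53, 14 were called in both tables, namely 11 in one direction (2 higher, 9 lower) and 3 in opposite directions. Over all genes 26.3% were called in both in one direction and 6.15% in opposite ones. The 3 opposite members were Traf1, Ltb and Traf3. Traf1 differed by -4.27 ± 0.55 (SE, adjusted p = 2.66e-13), Ltb by -3.05 ± 0.48 (SE, adjusted p = 5.41e-09) and Traf3 by -0.58 ± 0.17 (SE, adjusted p = 0.00375). Traf1 and Ltb were thus lower in KO-labelled LSK and higher in KO-labelled LinNeg cells. Recentred, each of the 3 differences was still called, whereas the separate LinNeg rises of Ltb and Traf3 were not, and Tnfrsf19 was called as a further difference (adjusted p = 0.0447).

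The sequence before the start of these 3 genes is shown because they were called in opposite directions, and because NF-kB is known to act on several genes of the family. Sequences are from RefSeq, build GRCm38.p6 (mm10), 5′ to 3′ on the gene's strand, and run over the 250 bases before the RefSeq start, shortened to 182 bases for Ltb, whose GENCODE M21 start lies upstream. Capitals mark matches to the NF-kB kappa B consensus, searched on both strands.
Ltb, chr17:35194257-35194438 (+ strand): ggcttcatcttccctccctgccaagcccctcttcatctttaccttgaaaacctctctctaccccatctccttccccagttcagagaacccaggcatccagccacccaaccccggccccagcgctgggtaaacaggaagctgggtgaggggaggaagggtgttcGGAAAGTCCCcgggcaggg
Traf3, chr12:111166120-111166369 (+ strand): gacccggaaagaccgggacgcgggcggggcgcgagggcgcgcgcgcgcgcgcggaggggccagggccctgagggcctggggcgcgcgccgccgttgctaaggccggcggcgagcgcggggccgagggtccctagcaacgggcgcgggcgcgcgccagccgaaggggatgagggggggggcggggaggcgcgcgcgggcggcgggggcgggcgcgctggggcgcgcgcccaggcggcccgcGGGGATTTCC
Traf1, chr2:34961773-34962022 (- strand): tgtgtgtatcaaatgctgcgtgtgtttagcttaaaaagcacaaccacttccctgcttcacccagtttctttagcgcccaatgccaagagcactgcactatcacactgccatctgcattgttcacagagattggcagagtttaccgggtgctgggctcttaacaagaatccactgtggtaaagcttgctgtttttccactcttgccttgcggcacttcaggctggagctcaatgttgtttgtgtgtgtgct
The match in Ltb, GGAAAGTCCC, began 87 bases before the start, and that in Traf3, GGGGATTTCC, began 10 bases before it. The letters of the consensus are not in the Traf1 window. Counted per gene, with a match in the 250 bases before any of its listed starts, 4 of 44 members with a window (Ltb, Traf3, Tnfrsf8 and Tnfrsf9) held one, or 9.09%, against 4.46% of 27025 genes. Counted per window, 4 of 49 member windows held one, or 8.16%, against 3.90% of 32851 windows.

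Receptors of the TNF and lymphotoxin branch fell more in LinNeg than in LSK. The difference was 1.52 ± 0.20 (SE, adjusted p = 1.37e-12) for Tnfrsf1a, 1.40 ± 0.29 (SE, adjusted p = 1.43e-05) for Ltbr and 0.95 ± 0.18 (SE, adjusted p = 1.70e-06) for Tnfrsf1b. Mlkl, called in LinNeg alone, differed by 1.66 ± 0.23 (SE, adjusted p = 2.81e-11). For Tnfrsf14, whose LSK rise was larger, the difference was 0.94 ± 0.22 (SE, adjusted p = 1.35e-04), and Tradd, called in neither table, differed by 0.54 ± 0.22 (SE, adjusted p = 0.0414). The monocyte and dendritic markers that fell in LinNeg in 10 of 10 fell in LSK in 2 of 9 and rose in 4, with sums of 8146 in KO-labelled and 6937 in WT-labelled LSK cells. Their part in these differences was not tested.

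For other ligands and receptors the LSK effect lay below the LinNeg effect. The difference was -1.87 ± 0.37 (SE, adjusted p = 5.44e-06) for Tnfsf10, -1.48 ± 0.33 (SE, adjusted p = 6.81e-05) for Tnfrsf18, -1.39 ± 0.39 (SE, adjusted p = 0.00216) for Cd27 and -0.96 ± 0.34 (SE, adjusted p = 0.0193) for Tnfsf14. Traf3ip2 differed by -1.59 ± 0.36 (SE, adjusted p = 9.38e-05), and Traf4, higher in both, by -1.73 ± 0.25 (SE, adjusted p = 8.83e-11). For the RANK pair the difference was -3.50 ± 1.32 (SE, adjusted p = 0.0277) for Tnfsf11 and -1.96 ± 0.70 (SE, adjusted p = 0.019) for Tnfrsf11a. For Tnfsf4 it was -5.27 ± 1.27 (SE, adjusted p = 2.29e-04). The LSK side of the Tnfsf11 difference rests on a mean of 3.44, and the LinNeg side of the Tnfsf4 difference on 1.74 in WT-labelled cells. Members that fell in both and for which no difference was called were Tnfrsf21, Tnfsf9, Tnfrsf26, Cflar, Traf3ip3 and Tnfsf12. For Cflar the difference was 0.31 (95% interval -0.087 to 0.71) and for Tnfrsf21 -0.11 (-0.50 to 0.27).

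**Figure D3:**
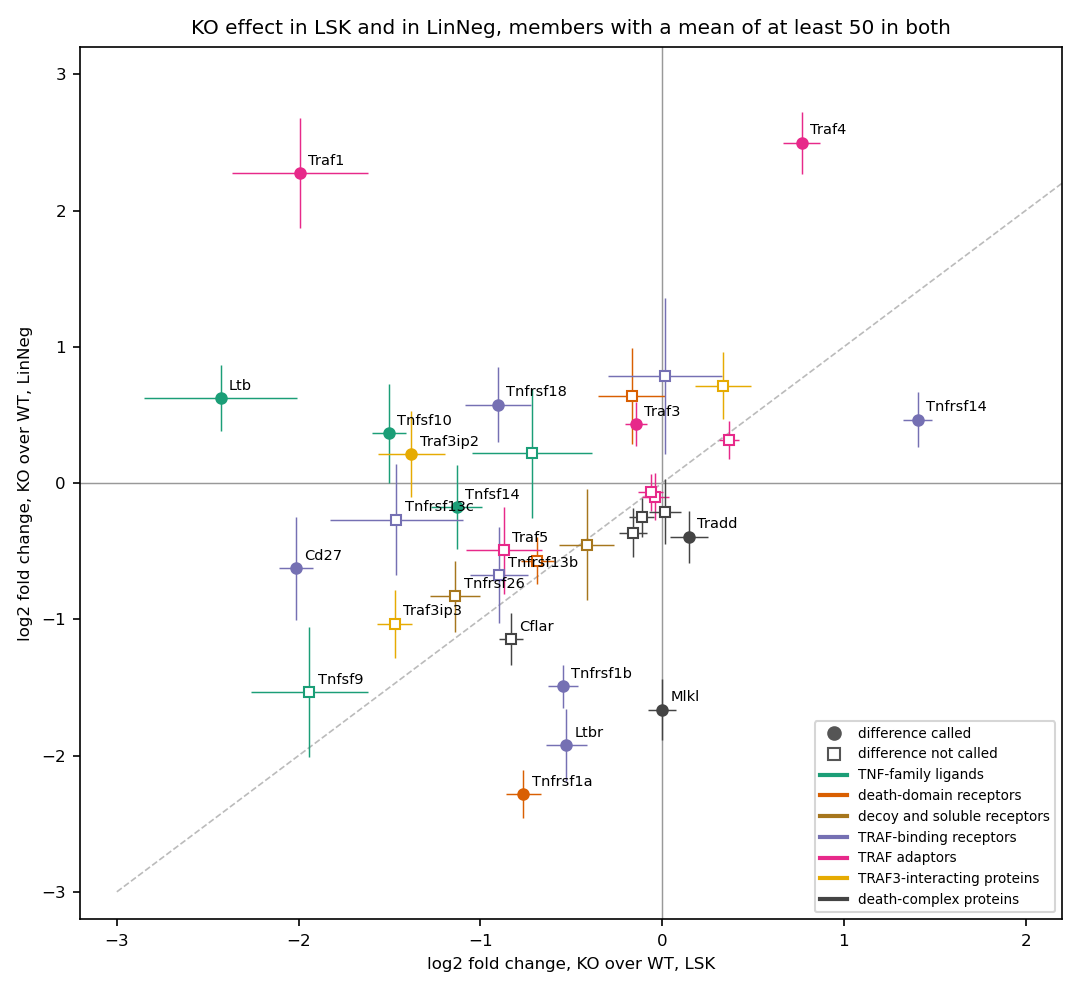
Log2 fold change of KO over WT in LSK (horizontal) and LinNeg (vertical) of the 34 members whose mean reached 50 in LSK and in LinNeg, with bars of 1 standard error and colours by role; filled points mark a called difference between the populations and the dashed line equal effects. Traf1 and Ltb lie far in the upper left quadrant, at -1.99 and -2.43 in LSK against 2.28 and 0.62 in LinNeg, and Tnfrsf1a, Ltbr, Tnfrsf1b and Mlkl lie below the line.

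**Figure D4:**
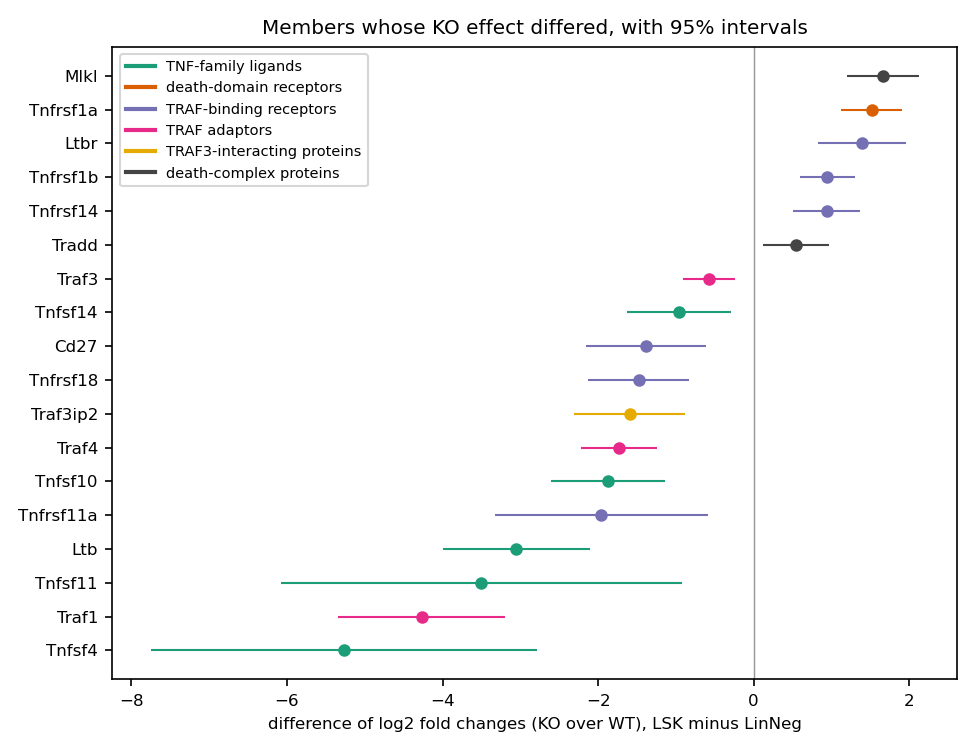
Difference of the log2 fold changes, LSK minus LinNeg, of the 18 members for which it was called, with 95% intervals, coloured by role. The values run from 1.66 for Mlkl to -5.27 for Tnfsf4, and 6 lie above 0. Those of Tnfsf4 and Tnfsf11 rest on low means, of 24.7 in LinNeg and 3.44 in LSK.

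Members that sit beside each other in the genome did not share 1 pattern. On chromosome 6 Cd27, Ltbr and Tnfrsf1a lie within 69.6 and 35.5 kb of each other, and all fell in LSK, while Ltbr and Tnfrsf1a fell in LinNeg. On chromosome 17 Ltb, Tnf and Lta follow each other at gaps of 3.06 and 1.16 kb. There Ltb and Tnf fell in LSK, and Ltb and Lta rose in LinNeg. On chromosome 4 Tnfrsf4 and Tnfrsf18 lie 9.55 kb apart, and Tnfrsf18 fell in LSK at -0.90 while Tnfrsf4 was at 0.017 in the authors' deposited table. Of the 56 symbols, 24 overlap another annotated gene and 8 a protein-coding one. Their counts may hold reads of that gene, or lack reads that lie in both. Distances come from GENCODE M21, build mm10.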

How the data were processed

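RNA of 12 libraries was measured, 3 for each cell population and genotype label. Per the submitters' processing notes, HISAT2, SAMtools 1.10, StringTie and DESeq2 were used with build mm10. No source used here gives the counting program or the annotation. Per the file headers, the authors deposited for each comparison a mean of normalized counts (a signal on a linear scale), a log2 fold change with its standard error, a Wald statistic (a score), and a p-value and adjusted p-value. Of 24542 rows per table, 5 that name no gene and 4 with repeated symbols were left out; 26.4% of the LSK and 38.0% of the LinNeg total fell on the row without a feature. The deposited log2 fold changes are rounded, so statistic times standard error was used in their place. Means per label were derived taking 3 libraries on each side. The difference between tables was set against its combined standard error in a two-sided normal test, with p adjusted by Benjamini-Hochberg over 15735 genes. A trial of this test on simulated data used genes with a mean of at least 50 in LSK and LinNeg. Its errors were normal with the same standard errors, as the test assumes. That trial therefore could not check this assumption or the test at lower means. Intervals are 95% normal intervals, computed here from the log2 fold change and its standard error. Levels per kb used the union of GENCODE M21 exons, in which all 56 symbols were found. The alternatives were recentring, an adjusted p under 0.01, a 2-fold limit, no filter or a mean of at least 50, and the deposited fold changes. Members, lists and the rule for named genes (every member named or counted by role, with statistics for members called with a mean of at least 50 in a table and for Tnf, Fas, Fasl, Tnfrsf1a, Tnfrsf1b, Tnfsf10, Tnfrsf10b, Cd27 and Cd40; the 2 smallest adjusted p of each pathway list and table; family proteins outside the symbol rule; U2af1) were chosen with earlier results of these data known. Statistics of other members and of Casp8, Bid, Adam17 and Map3k5 in the other table were added after their values were seen. A gene that the rule names is not reported here. Software was matplotlib 3.10.9, scipy 1.17.1, numpy 2.4.6 and pandas 2.3.3 under Python 3.11.15.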

Additional observations from a re-analysis of the deposited data

Results flagged for a closer look

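The KO effect differed between the populations by the test of the difference itself in 18 of 53 members tested. Since 31.9% of all genes differed by the same test, this number lay near the share of all genes. On the log2 scale, LSK minus LinNeg, the difference was positive for Mlkl (1.66), Tnfrsf1a (1.52), Ltbr (1.40), Tnfrsf1b (0.95), Tnfrsf14 (0.94) and Tradd (0.54). It was negative for the ligands Tnfsf4 (-5.27), Tnfsf11 (-3.50), Ltb (-3.05), Tnfsf10 (-1.87) and Tnfsf14 (-0.96). It was also negative for the receptors Tnfrsf11a (-1.96), Tnfrsf18 (-1.48) and Cd27 (-1.39), and for Traf1 (-4.27), Traf4 (-1.73), Traf3ip2 (-1.59) and Traf3 (-0.58). The values of Tnfsf4 and Tnfsf11 rest on low means, of 24.7 in LinNeg and 3.44 in LSK. The LSK label also carries the abbreviation BMT and the LinNeg label does not. The sex of the animals was unequal between the genotype labels to a different degree in LSK and LinNeg. The causes of these differences were not tested.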

How the results depend on the processing

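The number of members called stayed within 1.5 times when fold changes were recentred on the median gene and under both other filters on low means, for each of the 3 comparisons, and when the deposited rounded fold changes were used, for the difference. At an adjusted p under 0.01 the difference was called in 14 members, against 18, and in 23.7% of all genes, against 31.9%. With an adjusted p under 0.01, 3 members were higher in LSK and 6 in LinNeg, against 6 and 11. Of all genes, 4717 were then higher in LSK and 2756 in LinNeg, against 5338 and 3781. Asking for a 2-fold change left 15 members called in LSK, 3 higher and 12 lower, against 29, 6 and 23. Of all LSK calls 43.1% were higher at this limit, against 52.6% without it, so the background also leaned downward. Recentring on the median gene turned the sign of 4 uncalled LSK values, to -0.041 for Mlkl, -0.028 for Fadd, -0.025 for Tnfrsf4 and -0.0081 for Sharpin. Of 207 values of single genes it ended 7 calls and made 11. Over all genes that 2-fold limit took the calls to 3732 in LSK and 4043 in LinNeg, against 10148 and 7088. No paired analysis was possible because values per library were not analysed here, and for the same reason leaving out single libraries and another normalization were not run. Low means limit what could be called, as for Fasl and Tnfrsf17 in LSK, not called at log2 fold changes of 3.88 and -3.84. Fasl had a derived 0.171 in WT-labelled and Tnfrsf17 0.171 in KO-labelled LSK cells, levels under 1 that make their folds no measured ratios.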
